A study of Homo sapiens with 6 samples.

Results

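Transcripts of the transforming growth factor beta (TGF-beta) pathway were measured by RNA-seq in PANC-1 cells, a human line from a pancreatic carcinoma. The 9 genes described are the ligands TGFB1, TGFB2 and TGFB3, the receptors TGFBR1 and TGFBR2, the signal transducer SMAD3 and the target genes TGFBI, CCN1 and CCN2. They were chosen by name, with earlier results of these data known. Each has a row among the 20036 genes of the deposited count table. The tested cells had received a lentivirus that knocks down SHMT2, the mitochondrial serine hydroxymethyltransferase, and the control cells a null virus. There were 3 libraries per group, all of the same cell line, and the labels give no time point, no dose, no hairpin sequence and no word on whether the replicates were separate cultures. The p-values therefore speak of the spread among 6 libraries, and that spread may be technical.

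TGF-beta ligands are made as precursors that are cut by furin-type proteases and stored in the matrix in a latent complex until integrins or proteases release them. The ligand brings together the type II receptor, TGFBR2, and the type I receptor, TGFBR1, which phosphorylates SMAD2 and SMAD3. These move to the nucleus with SMAD4 and change the transcription of matrix and cell cycle genes. In pancreatic cancer the pathway is known both for restraining epithelial growth and for driving invasion. CCN1 and CCN2 are matrix-associated proteins whose genes also respond to YAP and TEAD, the transcriptional arm of the Hippo pathway.

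The promoters of the ligands TGFB1 and TGFB2 and of the target CCN2 are shown because TGFB1 and TGFB2 moved in opposite directions and because CCN2 is a target of more than 1 pathway. Each runs 5′ to 3′ on the strand of its gene, from 250 bases before to 50 bases after the start in RefSeq (GRCh38.p14). Capitals mark matches to CAGACA (from the CAGA box bound by SMAD3), CATTCC (bound by TEAD factors) and TATAAA, searched on both strands. A minus-strand CATTCC reads GGAATG.
TGFB2, chr1:218345086-218345385, plus strand: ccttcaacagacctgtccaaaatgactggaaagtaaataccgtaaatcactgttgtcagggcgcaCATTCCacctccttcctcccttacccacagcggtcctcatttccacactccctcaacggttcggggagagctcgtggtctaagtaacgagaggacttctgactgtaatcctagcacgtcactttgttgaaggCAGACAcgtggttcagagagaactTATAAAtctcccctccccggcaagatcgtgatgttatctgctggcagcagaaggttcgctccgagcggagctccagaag
TGFB1, chr19:41353873-41354172, minus strand: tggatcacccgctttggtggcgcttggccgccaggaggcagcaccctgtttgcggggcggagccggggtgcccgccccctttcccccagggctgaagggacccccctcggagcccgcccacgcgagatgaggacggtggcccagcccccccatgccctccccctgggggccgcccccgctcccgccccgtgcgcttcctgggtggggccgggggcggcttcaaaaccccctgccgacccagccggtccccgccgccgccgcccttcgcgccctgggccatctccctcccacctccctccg
CCN2, chr6:131951323-131951622, minus strand: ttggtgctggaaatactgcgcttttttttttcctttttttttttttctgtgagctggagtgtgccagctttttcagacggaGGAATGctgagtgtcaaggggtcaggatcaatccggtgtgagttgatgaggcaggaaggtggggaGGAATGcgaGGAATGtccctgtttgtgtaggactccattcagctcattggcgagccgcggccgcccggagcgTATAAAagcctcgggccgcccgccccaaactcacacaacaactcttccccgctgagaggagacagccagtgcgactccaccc

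The TGFB2 promoter held a CATTCC match that begins 185 bases before the start, a CAGACA match 53 bases before it and a TATAAA match 29 bases before it. The CCN2 promoter held GGAATG beginning 169, 104 and 95 bases before the start and TATAAA 32 bases before it. The TGFB1 window held none of these motifs, nor did that of TGFBI. GTCTAGAC and TGANTCA (the AP-1 motif) were searched too and were absent from all 4 windows. Of 27305 promoters of the same length, 16.8% held CAGACA, 14.0% CATTCC, 12.0% TATAAA, 7.76% TGANTCA and 0.201% GTCTAGAC. The G and C content was 77.3% in the TGFB1 window, 51.7% in that of TGFB2, 54.3% in that of CCN2 and 72.7% in that of TGFBI, against a median of 58.3% over all promoters. The table matched 4 of the 9 genes, and TGFB3, TGFBR1, TGFBR2, SMAD3 and CCN1 were not among them. These matches describe letters in a window and were not tested as binding sites.

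Library totals ran from 15405884 to 19075734 counts. SHMT2 itself had 139, 56 and 101 counts in the knockdown libraries, against 2113, 2284 and 2417 in the controls, a log2 fold change of -4.80 (SE 0.23, adjusted p = 1.04e-05 by edgeR's quasi-likelihood F test, Benjamini-Hochberg over all genes). Knockdown replicate 2 and control replicate 1 were unlike the rest of their groups. Chi-square per gene was 69.5 and 70.9 between knockdown replicate 2 and the other knockdown libraries but 2.38 between those, and 24.2 and 28.9 for control replicate 1 but 2.03 between the other controls. Mitochondrially encoded genes took 10.4% of the counts of knockdown replicate 2 and 4.72% of both others, against 5.78% to 6.86% in the controls. Of the epithelial markers, KRT8, KRT18, KRT19, EPCAM and CDH1 had counts in both groups, and their summed level was 1729 to 2227 CPM (counts scaled to a TMM-adjusted library total) in knockdown libraries, against 1155 to 1512 CPM in controls. KRT19 stood at 69.8 ± 12.9 CPM in knockdown libraries, against 0.152 ± 0.137 CPM in controls (SD, n = 3 each). The 5 epithelial markers did not go one way: KRT8, KRT19 and CDH1 were called higher and KRT18 was not called (adjusted p = 0.285, edgeR). EPCAM was called lower, at 6.95 ± 0.863 CPM in knockdown libraries, against 18.1 ± 0.527 CPM in controls (log2 fold change -1.38, edgeR adjusted p = 0.000172). The summed level of 6 fibroblast markers was 5.74 to 7.25 CPM in knockdown libraries, against 5.16 to 5.61 CPM in controls, and DCN was at 0. The fibroblast markers did not go one way either. COL3A1 was called higher, at 5.10 CPM in knockdown libraries, against 2.39 CPM in controls (edgeR adjusted p = 0.00622). THY1 was called lower, at 1.38 CPM, against 2.49 CPM in controls (edgeR adjusted p = 0.0289), and the other 4 were too low to test. The 6 immune markers summed to 2.26 to 3.11 CPM in knockdown libraries, against 0.802 to 1.84 CPM in controls, with LYZ among those at 0. Most of that sum was CD14, which averaged 2.37 CPM in knockdown libraries and 1.19 CPM in controls, and the other 5 were too low to test. The 5 endothelial markers summed to 5.86 to 7.30 CPM in knockdown libraries, against 0.506 to 0.692 CPM in controls, and KDR alone averaged 6.20 CPM in knockdown libraries and 0.257 CPM in controls. The part of these shifts in the results below was not tested.

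All 9 genes passed the filter on low counts. In the knockdown libraries 5 of them were called higher at an adjusted p below 0.05 (TGFB2, TGFBR1, TGFBR2, SMAD3 and TGFBI), 2 were called lower (TGFB1 and TGFB3), and CCN1 and CCN2 were not called. Across all 12292 genes tested, 51.8% were called, 26.7% higher and 25.1% lower, and the counts among the 9 genes stand beside those shares with nothing particular read from them. The groups did not overlap for the 7 called genes and overlapped for CCN1 and CCN2, where 61.4% of all tested genes did not overlap. The median log2 fold change of the 9 genes was 0.31, against 0.00 over all tested genes. In bulk RNA, fewer cells making a transcript and less of it per cell cannot be told apart.

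**Figure D1:**
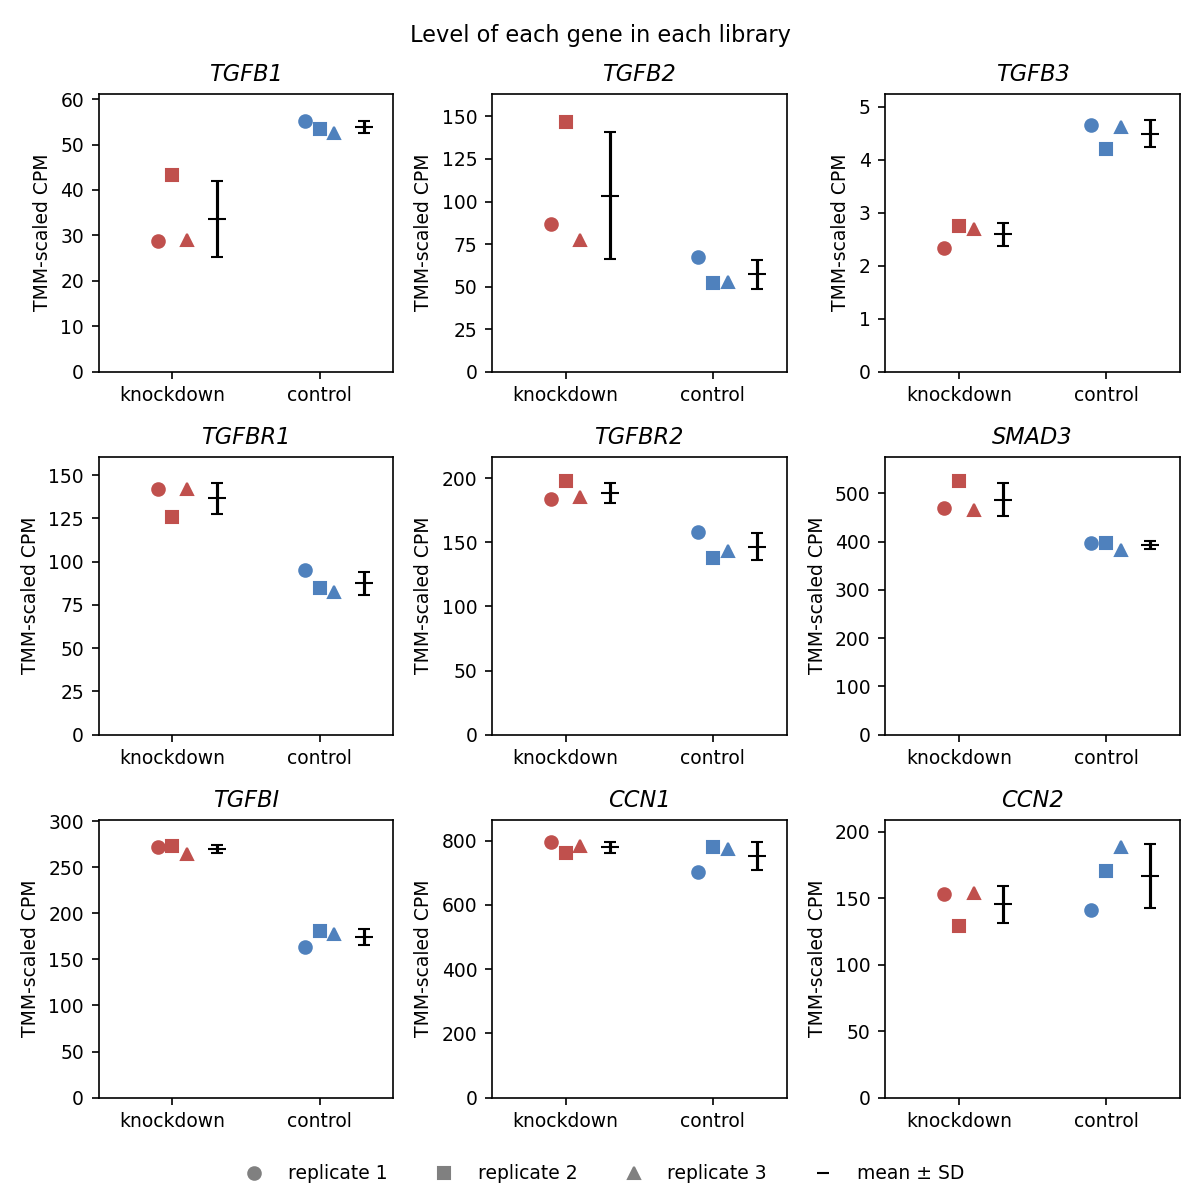
TMM-scaled CPM (vertical axes, from 0) of the 9 genes in each knockdown library (red, left) and each control library (blue, right), with the marker shape giving the replicate number and the black bar the mean ± SD of 3 libraries. Knockdown replicate 2 (square) stands highest for TGFB2 at 146 CPM, and the groups overlap for CCN1 and CCN2.

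TGFB2 rose while TGFB1 and TGFB3 fell, so the ligands did not move together. TGFB2 (ENSG00000092969, chromosome 1, 218345336 to 218444619, plus strand), the ligand with a leading part in heart and craniofacial development, had 86.7, 146 and 77.3 CPM in knockdown replicates 1, 2 and 3, against 67.2, 52.2 and 52.6 CPM in control replicates 1, 2 and 3. Every knockdown library lay above every control, but knockdown replicate 2 was far above the other knockdown libraries and control replicate 1 was the highest control. By edgeR it was 1.80-fold higher, with a log2 fold change of 0.85 (SE 0.24, adjusted p = 0.0201). That value was 0.51 when knockdown replicate 2 was left out (adjusted p = 0.0194), and it was no longer called when control replicate 2 (adjusted p = 0.0735) or 3 (0.0680) was.

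TGFB1 (ENSG00000105329, chromosome 19, 41301587 to 41353922, minus strand), the most studied of the ligands and a suppressor of immune cells, had 28.8, 43.4 and 28.9 CPM in knockdown replicates 1, 2 and 3. The control replicates had 55.2, 53.5 and 52.6 CPM. The controls were close to each other and all above the knockdown libraries, among which replicate 2 was the nearest to them. In edgeR the level fell by 37.4%, a log2 fold change of -0.68 (SE 0.17, adjusted p = 0.0108), and this was called in each of the 18 alternatives (log2 fold change -0.91 to -0.54). In the annotation, 6.64% of the exon bases of TGFB1 lie opposite HNRNPUL1, whose reads cannot be told apart without a stated strand setting.

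TGFB3 (ENSG00000119699, chromosome 14, 75958097 to 75983011, minus strand), a ligand known from palate closure, was the scarcest of the 9 genes. It had 47, 45 and 52 counts in the knockdown libraries, against 74, 63 and 73 counts in the controls, which is 2.34, 2.75 and 2.69 CPM in knockdown libraries, against 4.66, 4.21 and 4.62 CPM in controls. The groups did not overlap in CPM. Its log2 fold change of -0.80 (SE 0.16, edgeR adjusted p = 0.00497) was called in all 18 alternatives, and on the log2(FPKM + 1) scale, which compresses low values, it was -0.28.

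The balance of the ligands was compared per length. FPKM, which divides counts by gene length and library total, allows levels of different genes to be compared as far as the gene lengths of the table are right. TGFB2 had 15.1, 23.7 and 13.5 FPKM in the knockdown libraries, against 10.9, 8.38 and 8.40 FPKM in the controls. TGFB1 had 9.30, 13.0 and 9.35 FPKM in the knockdown libraries, against 16.5, 15.9 and 15.6 FPKM in the controls. TGFB2 thus exceeded TGFB1 in all 3 knockdown libraries and lay below it in all 3 controls.

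As a share of the summed FPKM of the ligands, TGFB2 made up 60.7%, 63.7% and 57.6% in the knockdown libraries, against 38.4%, 33.4% and 33.8% in the controls. The means were 60.7 ± 3.02% and 35.2 ± 2.79% (SD, n = 3 each), a difference of 25.5 percentage points. The exact 2-sided permutation test gave p = 0.1, the smallest that 3 libraries against 3 allow. TGFB1 made up 37.4 ± 2.54% in knockdown libraries, against 61.6 ± 2.69% in controls, and TGFB3 1.87 ± 0.472% in knockdown libraries, against 3.21 ± 0.195% in controls. Knockdown replicate 2, which stood apart in its levels, did not stand apart in this share, and the difference was 24.0 points without it. The summed FPKM itself was 24.9, 37.2 and 23.4 in the knockdown libraries, against 28.3, 25.1 and 24.8 in the controls, with overlapping groups (exact permutation p = 0.9).

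**Figure D2:**
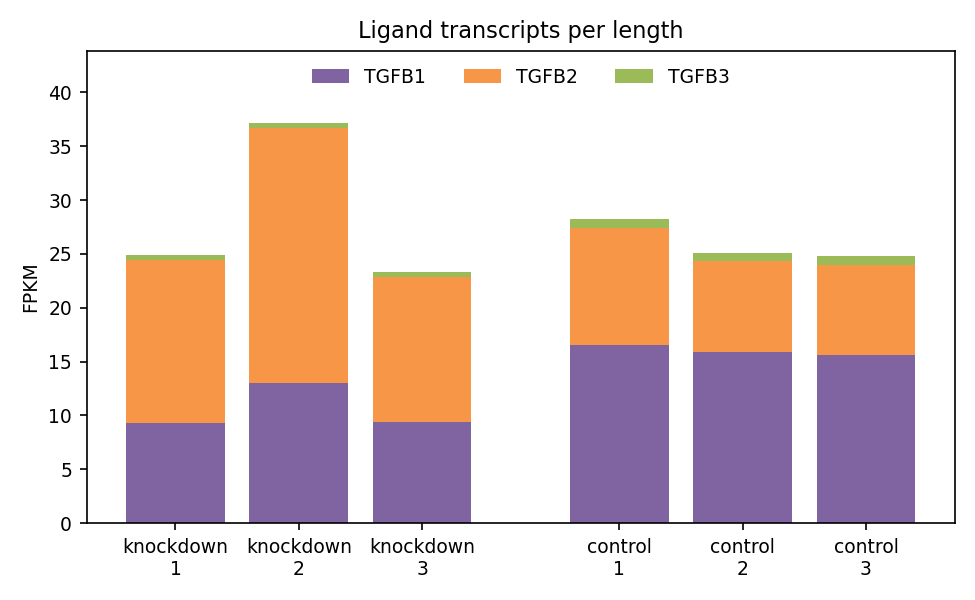
Stacked bars give the FPKM (vertical axis, from 0) of TGFB1 (purple, bottom), TGFB2 (orange, middle) and TGFB3 (green, top) in each knockdown library (left) and each control library (right). TGFB2 is the widest band in the knockdown libraries, with a share of 57.6% to 63.7%, and TGFB1 is the widest in the controls.

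Both receptors were higher in knockdown libraries. TGFBR1 (ENSG00000106799, chromosome 9, 99104038 to 99154192, plus strand), the type I receptor kinase that phosphorylates SMAD2 and SMAD3, had 142, 126 and 142 CPM in the knockdown libraries, against 95.1, 85.0 and 82.4 CPM in the controls. Knockdown replicate 2 was the lowest and control replicate 1 the highest of their groups, so that the libraries that stood apart lay toward the other group. It was 1.56-fold higher by edgeR, with a log2 fold change of 0.64 (SE 0.10, adjusted p = 0.00124), and was called in all 18 alternatives.

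TGFBR2 (ENSG00000163513, chromosome 3, 30606601 to 30694142, plus strand), the type II receptor that binds ligand first, had 183, 198 and 185 CPM in the knockdown libraries. The controls had 158, 138 and 143 CPM. The groups did not overlap. EdgeR gave a log2 fold change of 0.37 (SE 0.09, adjusted p = 0.0103), which was not called when control replicate 2 (adjusted p = 0.0597) or 3 (0.0513) was left out. The ratio of TGFBR2 to TGFBR1 in FPKM was 1.51, 1.83 and 1.52 in the knockdown libraries, against 1.94, 1.89 and 2.03 in the controls. Its log2 value differed by -0.28 (exact 2-sided permutation p = 0.1, the smallest possible), and knockdown replicate 2 lay close to the controls.

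SMAD3 (ENSG00000166949, chromosome 15, 67063763 to 67195173, plus strand), the receptor-activated factor that binds CAGA boxes, was slightly higher. It had 469, 527 and 466 CPM in the knockdown libraries, against 397, 397 and 383 CPM in the controls. The controls were nearly level and the groups did not overlap. EdgeR gave a gain of 24.2%, or a log2 fold change of 0.31 (SE 0.09, adjusted p = 0.0168). It was not called when control replicate 2 (adjusted p = 0.0664) or 3 (0.0793) was left out, nor with offsets that remove each library's trend on gene length (log2 fold change 0.16, adjusted p = 0.106); at 9981 bases SMAD3 is the longest of the 9 genes.

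The target genes did not move as a group. TGFBI (ENSG00000120708, chromosome 5, 136028988 to 136063818, plus strand), named for its induction by TGF-beta and coding for a secreted matrix protein that binds collagen and integrins, had 271, 273 and 264 CPM in the knockdown libraries, against 164, 180 and 178 CPM in the controls. The knockdown libraries were close to each other and all above the controls. In edgeR its log2 fold change was 0.63 (SE 0.08, adjusted p = 0.000601), the smallest adjusted p of the 9 genes, and it was called in all 18 alternatives (log2 fold change 0.54 to 0.71).

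CCN1 (ENSG00000142871, chromosome 1, 85580761 to 85584589, plus strand; CYR61 in older annotations), an integrin-binding matrix protein, was the most abundant of the 9 genes. It had 794, 761 and 782 CPM in the knockdown libraries, against 702, 781 and 775 CPM in the controls. Only control replicate 1 lay apart, and the other 5 libraries were interleaved. Its log2 fold change was 0.05 (SE 0.08, edgeR adjusted p = 0.636), with no call in any of the 18 alternatives, and -0.0027 without control replicate 1.

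CCN2 (ENSG00000118523, chromosome 6, 131948176 to 131951372, minus strand; CTGF in older annotations), a matrix protein of fibrosis and the gene whose promoter above holds the repeated GGAATG, had 153, 129 and 154 CPM in the knockdown libraries, against 141, 170 and 188 CPM in the controls. The groups overlapped through control replicate 1. With all libraries its log2 fold change was -0.20 (SE 0.13, edgeR adjusted p = 0.233). Without control replicate 1 it was -0.31 and called (edgeR adjusted p = 0.0457). With that library and knockdown replicate 2 both left out it was -0.22, near the value from all libraries, and called (edgeR adjusted p = 1.27e-06). That last refit called 73.6% of all tested genes, against 51.8% with all libraries. With the gene length offsets CCN2 was at -0.0031 (edgeR adjusted p = 0.978). At 2338 bases CCN2 is the shortest of the 9 genes.

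**Figure D3:**
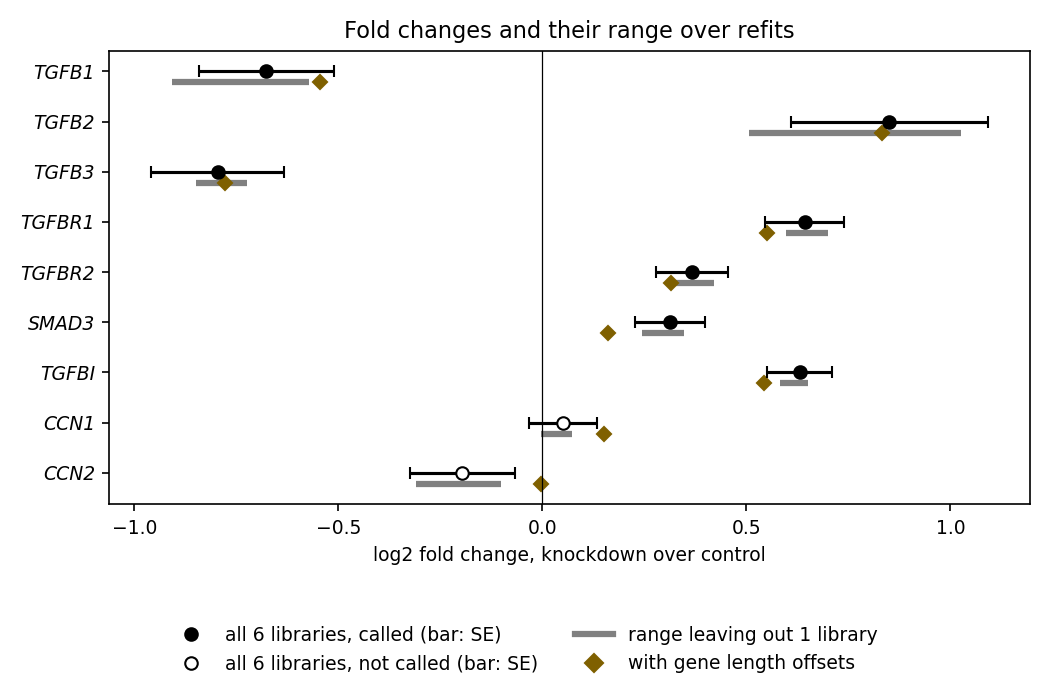
Log2 fold change of knockdown over control (horizontal axis) for each gene from all 6 libraries (filled circle, called; open circle, not called; bar, standard error), the range of values when each library is left out in turn (grey line) and the value with gene length offsets (diamond). The offsets bring SMAD3 to 0.16 and CCN2 to -0.0031, and the grey line of TGFB2 reaches down to 0.51.

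In order of FPKM, the knockdown libraries had CCN1 first (217 ± 13.8), then CCN2 (64.1 ± 8.78), SMAD3 (50.1 ± 1.26), TGFBI (35.9 ± 1.31), TGFBR2 (28.3 ± 0.148), TGFBR1 (17.6 ± 1.90), TGFB2 (17.4 ± 5.48), TGFB1 (10.5 ± 2.12) and TGFB3 (0.510 ± 0.0361; mean ± SD, n = 3). Of these neighbours, TGFBR1 and TGFB2 overlapped. The control libraries had CCN1 (198 ± 10.7), CCN2 (69.1 ± 9.58), SMAD3 (38.2 ± 1.02), TGFBI (21.9 ± 1.03), TGFBR2 (20.8 ± 1.60), TGFB1 (16.0 ± 0.482), TGFBR1 (10.6 ± 0.874), TGFB2 (9.21 ± 1.43) and TGFB3 (0.836 ± 0.0469). There TGFBI overlapped with TGFBR2, and TGFBR1 with TGFB2. The places of CCN1, CCN2, SMAD3, TGFBI, TGFBR2 and TGFB3 were thus the same in both groups, and TGFB1 stood 3 places before TGFB3 in the controls but next to it in the knockdown libraries.

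Around these genes, 97 further genes were read from lists by role. The lists cover the pathway and also hold 19 YAP and TEAD targets and 4 other CCN family genes. Of the 97 genes, 84 were tested: 28 were higher, 33 lower and 23 not called, with a median log2 fold change of -0.12. That is 72.6% called, where 51.8% of all tested genes were (26.7% higher and 25.1% lower). The lists were chosen with earlier results of these data known, so their shares beside those of all genes are a description only. The count of higher genes fell to 15 when control replicate 2 was left out and to 16 when control replicate 3 was, refits in which 38.0% and 38.4% of all tested genes were called. Of 11 tested genes that store or release the ligands, 4 were higher and 4 lower (median 0.15). When any 1 library other than control replicate 1 was left out, 2 were higher, in refits that called 38.0% to 53.9% of all tested genes. FURIN, the protease that cuts the ligand precursors, fell to 71.4 ± 4.76 CPM in knockdown libraries, against 145 ± 6.56 CPM in controls (log2 fold change -1.02). LTBP1, which tethers the latent ligand to the matrix, fell to 126 ± 4.25 CPM, against 202 ± 7.52 CPM in controls (-0.68). The subunits of an integrin that frees latent ligand were higher: ITGB8 at 22.5 ± 1.80 CPM, against 9.52 ± 2.40 CPM in controls (1.24), and ITGAV at 642 ± 23.6 CPM, against 408 ± 46.7 CPM in controls (0.65; 0.35 with gene length offsets, also called).

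Of 9 tested receptors, co-receptors and receptor adaptors, 5 were higher and 2 lower (median 0.26), where 26.7% of all tested genes were higher and 25.1% lower. Of these, 2 were higher without knockdown replicate 1, control replicate 2 or control replicate 3, and 3 without knockdown replicate 3. Those refits called 42.4%, 38.0%, 38.4% and 43.9% of all tested genes, in that order, against 51.8% with all libraries. The co-receptor TGFBR3, betaglycan, which presents TGFB2 to the type II receptor, rose to 9.75 ± 0.829 CPM, against 3.57 ± 1.03 CPM in controls (log2 fold change 1.44). ZFYVE9, the SMAD anchor at the receptor, rose to 52.4 ± 2.06 CPM, against 31.8 ± 1.15 CPM in controls (0.72). The co-receptor ENG, endoglin, fell to 16.8 ± 2.35 CPM, against 33.2 ± 1.03 CPM in controls (-0.98), and the adaptor DAB2 to 3.28 ± 1.04 CPM, against 9.43 ± 1.53 CPM in controls (-1.53).

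Of 17 SMADs and regulators, 5 were higher and 4 lower (median -0.23), close to the 26.7% and 25.1% of all tested genes. Leaving out control replicate 2 left 1 of them higher and leaving out control replicate 3 left 2. Leaving out knockdown replicate 1 or 3, or fitting the gene length offsets, left 3. Those refits called 38.0%, 38.4%, 42.4%, 43.9% and 53.1% of all tested genes, in that order. With control replicate 1 and knockdown replicate 2 both left out, 9 were lower. That refit called 73.6% of all tested genes, with 4559 of 12415 lower, so its calls came more readily. SMAD2, the partner of SMAD3, rose to 193 ± 5.65 CPM, against 112 ± 8.21 CPM in controls (log2 fold change 0.79), and its value was 0.32 with gene length offsets (adjusted p = 0.0300, edgeR). PMEPA1, a target that restrains receptor signalling, fell to 166 ± 3.91 CPM, against 352 ± 10.0 CPM in controls (-1.08), and the ubiquitin ligase SMURF2 to 53.1 ± 9.80 CPM, against 102 ± 5.72 CPM in controls (-0.94). STUB1, another ubiquitin ligase, fell by 0.56 on the log2 scale, but 42.4% of its exon bases lie opposite JMJD8, and its call was lost with gene length offsets (adjusted p = 0.0870, edgeR). SMAD4, at 45.5 ± 7.81 CPM, against 54.1 ± 3.83 CPM in controls, was not called (adjusted p = 0.167, edgeR), but was called with gene length offsets (log2 fold change -0.57, adjusted p = 0.0325) and with control replicate 1 and knockdown replicate 2 both left out (-0.17, 0.0128). The inhibitory SMAD7, at 12.8 ± 2.10 CPM, against 17.1 ± 2.31 CPM in controls, was not called either (adjusted p = 0.0632), and was called without control replicate 1 (0.0299), with knockdown replicate 2 left out as well (0.000691) and by DESeq2 (0.0496).

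Of 27 tested target genes other than TGFBI, CCN1 and CCN2, 19 were lower and 5 higher, with a median log2 fold change of -0.82. Over all tested genes, 25.1% were lower and 26.7% higher. The count was 18 to 19 lower and 4 to 5 higher when each library was left out in turn. Between 38.0% and 54.3% of all tested genes were called in those refits, against 51.8% with all libraries. ID3 and ID2, which block helix-loop-helix factors and answer to BMP as well as TGF-beta, fell to 12.1 ± 1.78 and 1.39 ± 0.178 CPM, against 114 ± 12.2 and 17.6 ± 2.57 CPM in controls. The gelatinase MMP2 fell to 21.4 ± 3.07 CPM, against 133 ± 2.93 CPM in controls (log2 fold change -2.64), and the metalloprotease ADAM19 to 82.9 ± 4.37 CPM, against 246 ± 8.50 CPM in controls (-1.57). TGFBI, at 0.63, thus moved against 19 of the 27. The 5 higher targets were ZEB1, LOX, SPARC, CDH2 and TGM2, with log2 fold changes of 0.96, 1.24, 2.29, 0.60 and 0.38, of which SPARC had only 1.07 ± 0.108 CPM, against 0.215 ± 0.0771 CPM in controls. ZEB1 was not called by edgeR when knockdown replicate 2 (adjusted p = 0.0685) or control replicate 2 (0.0783) or 3 (0.0766) was left out.

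Genes that answer to YAP and TEAD, as CCN1 and CCN2 do, were higher in 8 and lower in 4 of 19 (median 0.17), where 26.7% of all tested genes were higher and 25.1% lower. Without control replicate 2 or 3, 5 of them were higher, in refits that called 38.0% and 38.4% of all tested genes, against 51.8% with all libraries. NUAK2, a kinase that feeds back on the Hippo pathway, rose to 19.2 ± 0.674 CPM, against 7.10 ± 1.03 CPM in controls (log2 fold change 1.44), and GADD45A to 53.9 ± 3.25 CPM, against 28.6 ± 4.66 CPM in controls (0.91). The receptor kinase AXL fell to 368 ± 12.2 CPM, against 557 ± 14.1 CPM in controls (-0.60), and the exchange factor DOCK5 to 125 ± 21.0 CPM, against 237 ± 32.0 CPM in controls (-0.93). Of the other 4 members of the CCN family, CCN5 alone was tested, and it rose to 22.7 ± 2.94 CPM, against 7.80 ± 0.819 CPM in controls (1.55, adjusted p = 0.000162, edgeR). CCN3, CCN4 and CCN6 were too low to test, CCN3 at 0.556 ± 0.0625 CPM in knockdown libraries and 0.600 ± 0.0931 CPM in controls.

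**Figure D4:**
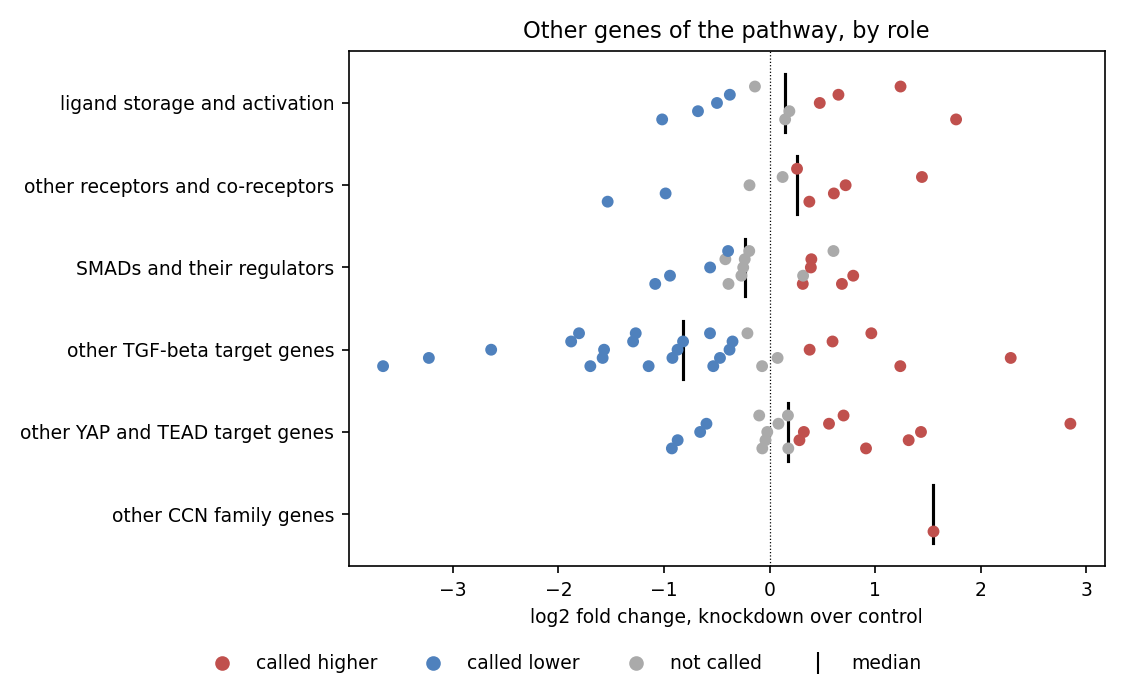
Each point is a tested gene of the lists, other than the 9 above, placed by its log2 fold change of knockdown over control (horizontal axis). Rows give the role, and the YAP and TEAD targets and CCN family genes have rows of their own. Points are red where called higher, blue where called lower and grey where not called, with a black line at the median of the row. The row of other TGF-beta targets has its median at -0.82 with 19 points lower and 5 higher, while the other rows with more than 1 gene have medians between -0.23 and 0.26.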

How the data were processed

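The samples were 6 RNA-seq libraries, 3 per group, grouped by their titles. Per the labels, RNA came from a TRIzol extraction and the library kit was NEBNext Ultra II RNA. No aligner, counter, build, annotation or strand setting is named in the labels or headers. The authors deposited read counts per gene and FPKM values, per the file headers, and the counts, gene lengths and column totals give the FPKM back (largest relative difference 2.29e-07). Of the 9 genes, 8 shared a start or end with GENCODE 29 on GRCh38, and 79.0% of all identifiers found there did, so coordinates are printed as deposited.

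The test was edgeR 4.0.16 under R 4.3.3 (filterByExpr, TMM factors, quasi-likelihood F test, no covariates) on 12292 genes. Calls are Benjamini-Hochberg adjusted p below 0.05. Each standard error is the absolute log2 fold change over the square root of F, and CPM are scaled by TMM factors. Ligand shares and receptor ratios used FPKM and exact permutation. The fit was tested on simulated data. The 9 genes, the lists and the alternatives were chosen with earlier results of these data known. From each list, up to 4 called genes of smallest p with a mean of at least 5 CPM are named, or the 2 of highest mean where fewer than 2 were called. SMAD4, SMAD7 and the higher targets were named after their values were seen. Alternatives were other scalings, no filter, DESeq2 1.42.0, limma-voom and limma 3.58.1 on log2(FPKM + 1) and log2(FPKM + 0.1), the replicate number as a block, offsets for gene length (lowess, span 0.5) and left-out libraries. Chi-square used genes with at least 8 counts in a pair of libraries. Sequences are from RefSeq.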

Additional observations from a re-analysis of the deposited data

How the results depend on the processing

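Of the 9 genes, TGFB1, TGFB3, TGFBR1 and TGFBI kept their direction and call in all 18 alternatives, and SMAD3 lost its call in 5, TGFB2 and TGFBR2 in 2 each. With each library left out in turn, 2 to 5 of the genes were called higher and 2 to 3 lower, and 15 to 28 further listed genes were called higher. The lowest counts were 2 and 15 without control replicate 2 and 2 and 16 without control replicate 3. Those refits called 38.0% and 38.4% of all tested genes. CCN1, never called, ran from -0.0027 (without control replicate 1, adjusted p = 0.979 by edgeR) to 0.0725. The share of TGFB2 among the ligands differed by 24.0 to 27.1 points and the log2 receptor ratio by -0.37 to -0.23 in the same refits, and scaling leaves both as they are by construction.

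The replicate number as a block gave 5444 calls, against 6372 without it, and ended the call of SMAD3 (adjusted p = 0.0556, edgeR) and of no other of the 9; it left 3 receptors and co-receptors and 5 YAP and TEAD genes called higher, against 5 and 8. With the block and gene length offsets together, 46% of all tested genes were called and 15 further listed genes were higher, against 28. SMAD2, TGM2 and STUB1 lost their calls there (edgeR adjusted p = 0.0672, 0.0602 and 0.113). The labels name no source shared by libraries of the same number. Deviations of same-numbered libraries from their group means correlated at -0.36, -0.34 and 0.37. With 3 libraries per group the deviations sum to 0, so these correlations depend on each other. They cannot decide whether the numbers mark pairs. The highest correlation of any knockdown with any control library was 0.49. It was that of knockdown replicate 2 with control replicate 1, the libraries unlike the rest of their groups. On log2(FPKM + 1), which compresses low values, ITGB8, TGFBR3, DAB2, SPARC and ID2 were at 0.65, 0.63, -0.61, 0.24 and -2.40, all called. TGFB3, at 45 to 74 counts a library, is the gene of the 9 with the lowest counts.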

Other observations

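Over the 6 libraries and 10012 tested genes with a mean of at least 5 CPM, the genes whose profile was most like that of TGFB2 were CD55, RAB6A and STAU1, with Pearson correlations of 0.9994, 0.9994 and 0.9980 of log2(CPM + 0.5). CD55, which shields cells from complement, stood at 158 CPM in knockdown libraries, against 108 CPM in controls, and RAB6A, a Golgi traffic GTPase, at 310 CPM, against 217 CPM in controls. For CCN2 they were MEX3C, XBP1 and CYB5B, at 0.9961, 0.9943 and 0.9931, none of them called. XBP1, a factor of the unfolded protein response, stood at 64.1 CPM in knockdown libraries, against 71.7 CPM in controls. These profiles share the group structure and the libraries that stood apart, knockdown replicate 2 and control replicate 1. Correlations above 0.95 were found for 332 genes with TGFB2 and 116 with CCN2, so the order among the nearest is a description only.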
